A study of Mus musculus with 8 samples.

Results

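The TNF receptors and their cytoplasmic adaptors examined here are Cd40, Fas, Tnfrsf1a and Tnfrsf1b among the receptors, Traf1 and Traf2 among the TRAF adaptors, and Birc2 and Birc3, which encode the ubiquitin ligases cIAP1 and cIAP2. They were chosen by gene symbol, as every probe set of the value table that carries the symbol of a listed gene and no other. Of 10 genes on the list 8 were found this way, with 1 probe set each, among 34472 probe sets and 22180 genes with a probe set of their own. Traf3 and Ripk1 were not analysed here.

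The cells were neutrophils collected from air pouches of mice after lipopolysaccharide (LPS) was injected into the pouch, and purified by negative selection. RNA of each pool of 5 mice went on 1 Mouse Gene 2.0 ST array from Affymetrix. The conditional knockout (cKO) was homozygous for a floxed allele of Arf6 and for Cre (flox+/+Cre+/+, 3 arrays). The Cre control carried Cre and no floxed allele (flox-/-Cre+/+, 2 arrays), and the flox control carried the floxed allele and no Cre (flox+/+Cre-/-, 3 arrays). Arf6 is a small GTPase of membrane traffic and of the actin cytoskeleton. All 3 genotypes received LPS and all samples came from the pouch, so none of these arrays is a sample of resting neutrophils. The sources used here give neither the promoter that drives Cre nor the age of the mice.

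Receptors of the TNF family have no enzymatic activity and signal by gathering proteins at their cytoplasmic tails. TNFR1, the product of Tnfrsf1a, and Fas carry a death domain, through which TNFR1 binds TRADD and Fas binds FADD. TNFR2, the product of Tnfrsf1b, and CD40 bind TRAF proteins directly, and TRAF2 brings in the cIAPs. At TNFR1 the ubiquitin chains that cIAPs place on RIPK1 recruit the kinases that activate NF-kB. In neutrophils TNF is known to prime the oxidative burst and can prolong or shorten survival, and Fas is known as a trigger of neutrophil death.

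The source field of each sample names a genotype that differs from its title and genotype label, and groups were taken from the genotype label. The Arf6 probe set 17275925 read 6.49, 6.06 and 6.20 (log2 intensity) in the arrays labelled cKO, 7.79 and 7.86 in the Cre controls and 8.19, 8.20 and 7.68 in the flox controls. Its level thus followed the genotype labels, with a log2 fold change against both controls of -1.67 (SE 0.15, adjusted p = 0.0122 by limma). This call was lost without flox control replicate 2 (adjusted p = 0.0773) or Cre control replicate 1 (0.154) or 2 (0.182). A second Arf6 probe set, 17281565, differed by -0.15 (SE 0.15, adjusted p = 0.816).

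Array medians lay between 5.41 and 5.48. A pair of pools stood apart in sex-linked transcripts. The Y-linked Eif2s3y read 4.08 in cKO replicate 1 and between 8.66 and 10.04 in the other arrays, and the X-linked Xist read 5.46 in flox control replicate 1 and between 7.84 and 10.21 in the others. Neutrophil markers gave a mean level of 11.61 to 11.82 in the cKO, 11.51 in both Cre controls and 11.73 to 11.94 in the flox controls (10 of 10 genes measured). Some genes listed as markers of other cells gave signal too. In the class II and dendritic list H2-Ab1 read 10.14 or more in every array, whereas Zbtb46 read between 5.22 and 5.50. Which cells gave this signal was not tested. In such bulk samples fewer cells of a type and less RNA per cell cannot be told apart.

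Before the values, promoter sequences are shown for the 4 members that read lower in every cKO array than in any flox control. These are Traf1, Traf2, Fas and Tnfrsf1b, with 250 bases before and 50 bases after the annotated start of each gene (RefSeq, GRCm38.p6). Of the 10 listed genes 9 had such a window, and that of Cd40 was not used here. Sequences run 5′ to 3′ on the gene's strand. Capitals mark matches on either strand to the interferon-gamma activated site TTCNNNGAA or to the GC box GGGCGG, and the 10-base NF-kB consensus was searched in the same way. No match to any of these motifs overlaps another in these 4 windows.
Traf1 (chr2:34961723-34962022, reverse strand): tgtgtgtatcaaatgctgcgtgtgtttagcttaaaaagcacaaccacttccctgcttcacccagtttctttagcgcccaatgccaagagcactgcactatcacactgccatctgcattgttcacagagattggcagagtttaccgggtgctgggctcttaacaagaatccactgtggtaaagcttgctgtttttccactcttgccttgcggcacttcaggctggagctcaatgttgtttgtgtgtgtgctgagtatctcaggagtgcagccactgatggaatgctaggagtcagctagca
Traf2 (chr2:25546891-25547190, reverse strand): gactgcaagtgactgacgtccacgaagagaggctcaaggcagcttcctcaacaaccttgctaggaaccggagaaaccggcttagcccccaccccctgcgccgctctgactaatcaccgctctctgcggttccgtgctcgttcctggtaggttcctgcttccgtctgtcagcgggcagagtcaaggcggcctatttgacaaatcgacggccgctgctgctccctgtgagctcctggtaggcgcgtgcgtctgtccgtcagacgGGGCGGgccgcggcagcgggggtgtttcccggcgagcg
Fas (chr19:34290409-34290708, forward strand): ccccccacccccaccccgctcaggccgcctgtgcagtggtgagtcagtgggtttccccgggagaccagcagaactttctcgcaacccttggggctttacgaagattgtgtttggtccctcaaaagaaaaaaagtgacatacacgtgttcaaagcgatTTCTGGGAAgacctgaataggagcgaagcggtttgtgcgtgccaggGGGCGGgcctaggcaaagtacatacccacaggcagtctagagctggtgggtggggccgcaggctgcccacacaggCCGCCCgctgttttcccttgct
Tnfrsf1b (chr4:145246821-145247120, reverse strand): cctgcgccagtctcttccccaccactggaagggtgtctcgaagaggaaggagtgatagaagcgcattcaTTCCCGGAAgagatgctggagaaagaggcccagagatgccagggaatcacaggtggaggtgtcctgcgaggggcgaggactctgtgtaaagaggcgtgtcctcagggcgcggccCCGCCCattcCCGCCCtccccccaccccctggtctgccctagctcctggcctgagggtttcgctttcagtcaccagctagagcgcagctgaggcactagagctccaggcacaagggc
The NF-kB consensus was in none of these 4 windows, and of 32851 windows of the same length in the annotation 4.51% held it. Fas had a match to TTCNNNGAA 93 bases before its start and Tnfrsf1b had one 181 bases before its start, where 8.3% of all windows held at least 1. This match was not particular to the printed genes. Tnfrsf1a, whose window is not printed, had one 244 bases before its start, while the windows of Birc2 and Birc3 had none. The GC box was in 35.7% of all windows. Fas and Tnfrsf1b each had 2 matches to it, Traf2 had 1 downstream of its start, and Traf1 had none. A match is a description of letters, and no binding was measured.

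CD40 is a costimulatory receptor best known on B cells, dendritic cells and macrophages, and it was the member with the widest spread over the arrays (1.31 log2 units). The Cd40 probe set 17379659 (gene identifier 21939, chromosome 2) read 8.21, 7.91 and 8.35 in the cKO, 9.06 and 8.91 in the Cre controls and 8.09, 7.99 and 7.75 in the flox controls. Both Cre controls lay above the other 6 arrays, and the cKO and flox control arrays overlapped. Between the control genotypes Cd40 was 2.06-fold higher in the Cre control (log2 1.04, SE 0.16, 95% interval 0.68 to 1.41), and this passed over all probe sets (adjusted p = 0.0385 by limma). The cKO differed from the Cre control by -0.83 (SE 0.16, 95% interval -1.20 to -0.46, adjusted p = 0.12) and from the flox control by 0.21 (SE 0.15, 95% interval -0.12 to 0.54, adjusted p = 0.748). The difference of -0.31 (SE 0.13) from both controls therefore averages values of opposite sign. The order of mean levels was Cre control (8.99), cKO (8.16) and flox control (7.94), of which the last pair did not differ beyond their spread.

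The Cre control call of Cd40 was lost without cKO replicate 1 (adjusted p = 0.0765), flox control replicate 1 (0.0559) or 2 (0.107), or Cre control replicate 1 (0.335) or 2 (0.285), while the log2 fold change stayed between 0.95 and 1.12. Markers of cells that carry CD40 were read beside it. The class II and dendritic list (8 of 9 genes measured) had mean levels of 8.40 to 8.63 in the cKO, 8.53 to 8.58 in the Cre controls and 8.04 to 8.41 in the flox controls. Both Cre controls lay above all flox controls, and the cKO arrays overlapped both groups. Between the control genotypes 7 genes of this list read higher and 1 lower in the Cre control (median log2 fold change 0.48). The macrophage list (8 of 9) had means of 9.12 to 9.25 in the cKO, 9.43 to 9.47 in the Cre controls and 8.88 to 9.33 in the flox controls, with both Cre controls above the other 6 arrays. Of the 8 macrophage genes 6 read higher and 2 lower in the Cre control than in the flox control, Csf1r (-0.09) and Cd68 (-0.16) being lower. In 3 genes, Mertk, C1qb and C1qc, both Cre controls lay above all flox controls, where 15.3% of all probe sets did so. B cell markers (5 of 6) had means of 5.06 to 5.16 in the cKO, 5.08 to 5.11 in the Cre controls and 5.02 to 5.10 in the flox controls, all below the median of all values (5.45). Single B cell genes lay on both sides of it, with Ms4a1 at 4.25 or less in every array and Cd79b between 5.49 and 5.79. The part of any of these cell types in the Cd40 difference was not tested.

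**Figure D1:**
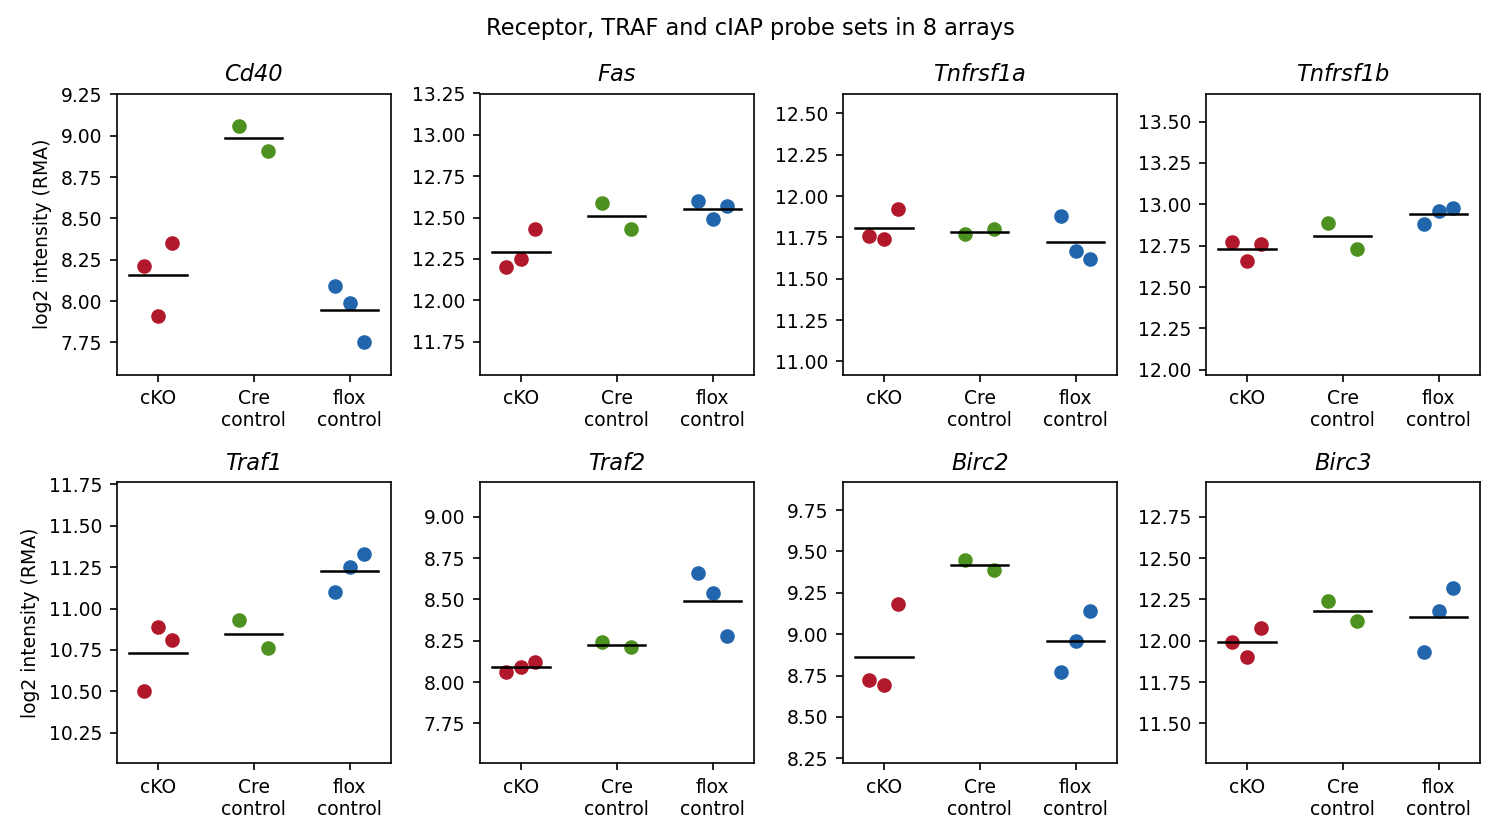
Log2 intensity (vertical axis, RMA) of the 8 probe sets in each array, by genotype, with a point for each array, a bar for the group mean, and axes that all span the same number of log2 units. Cd40 and Birc2 are highest in the 2 Cre controls, and Traf1 and Traf2 are highest in the flox controls.

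Fas, the death receptor known as CD95, read lower in the cKO by a small amount. Its probe set 17358797 (chromosome 19) gave 12.20, 12.25 and 12.43 in the cKO, 12.59 and 12.43 in the Cre controls and 12.60, 12.49 and 12.57 in the flox controls. Each cKO array lay below every control, with cKO replicate 3 and Cre control replicate 2 equal at 2 decimals. Fas in the cKO was at 84.9% of the mean control signal (log2 -0.24, SE 0.10), with unadjusted p = 0.0436 and adjusted p = 0.514 by limma. The control genotypes differed by -0.04 (SE 0.13). Group means of 12.29 in the cKO, 12.51 in the Cre control and 12.55 in the flox control put the controls side by side.

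Of the genes for the TNF receptors, Tnfrsf1b read slightly lower in the cKO than in the flox control, and Tnfrsf1a was alike in all groups within its spread. Tnfrsf1b, which encodes TNFR2 (probe set 17432674, chromosome 4), read 12.77, 12.66 and 12.76 in the cKO, 12.89 and 12.73 in the Cre controls and 12.88, 12.96 and 12.98 in the flox controls. The cKO lay below every flox control and overlapped the Cre controls, with log2 fold changes of -0.21 (SE 0.11, adjusted p = 0.667) and -0.08 (SE 0.12, adjusted p = 0.855) by limma. Tnfrsf1a, which encodes TNFR1 (probe set 17463184, chromosome 6), read 11.76, 11.74 and 11.92 in the cKO, 11.77 and 11.80 in the Cre controls and 11.88, 11.67 and 11.62 in the flox controls. All 3 groups overlapped. Tnfrsf1a had the smallest range of the members (0.30 log2 units), and its difference from both controls was 0.05 with a 95% interval of -0.18 to 0.29. A difference between Tnfrsf1b and Tnfrsf1a was not tested.

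TRAF1 is the TRAF without a RING domain, is induced by NF-kB and binds TRAF2. Traf1 (probe set 17384355, chromosome 2) read 10.50, 10.89 and 10.81 in the cKO, 10.93 and 10.76 in the Cre controls and 11.10, 11.25 and 11.33 in the flox controls. The flox controls stood above the other 5 arrays, and the cKO overlapped the Cre controls. Against the flox control the cKO signal was 1.41-fold lower (log2 -0.50, SE 0.14, 95% interval -0.80 to -0.19), which did not pass over all probe sets (unadjusted p = 0.00461, adjusted p = 0.37 by limma). Against the Cre control it differed by -0.11 (SE 0.15, adjusted p = 0.82). The Cre control itself was lower than the flox control by a log2 fold change of -0.38 (SE 0.15, adjusted p = 0.281).

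TRAF2 links TNFR2, CD40 and TRADD to the cIAPs. Traf2 (probe set 17382626, chromosome 2) read 8.06, 8.09 and 8.12 in the cKO, 8.24 and 8.21 in the Cre controls and 8.66, 8.54 and 8.28 in the flox controls. All 3 cKO arrays lay below all 5 controls, and the flox controls lay above the Cre controls. The cKO arrays were close together (SD 0.03), while the flox controls spread more widely (SD 0.20). The log2 fold change was -0.41 (SE 0.12, unadjusted p = 0.00847, adjusted p = 0.413) against the flox control and -0.14 (SE 0.14, adjusted p = 0.742) against the Cre control by limma. Traf1 and Traf2 thus shared the order of group means, with the flox control highest, the Cre control next and the cKO lowest. For neither gene did the cKO and Cre control differ beyond the interval of their difference.

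Birc2 and Birc3 encode cIAP1 and cIAP2, RING ubiquitin ligases that act on RIPK1 and on the kinase NIK, and Birc3 is known as a target of NF-kB. Birc2 (probe set 17523852, chromosome 9) read 8.72, 8.69 and 9.18 in the cKO, 9.45 and 9.39 in the Cre controls and 8.77, 8.96 and 9.14 in the flox controls. As for Cd40, both Cre controls stood above the other 6 arrays. Birc2 in the cKO was 1.47-fold lower than in the Cre control (log2 -0.56, SE 0.18, unadjusted p = 0.0105, adjusted p = 0.241 by limma) and differed from the flox control by -0.09 (SE 0.16, adjusted p = 0.926). The Cre control exceeded the flox control by 0.46 (SE 0.18, adjusted p = 0.26). Birc3 (probe set 17523863, chromosome 9) read 11.99, 11.90 and 12.08 in the cKO, 12.24 and 12.12 in the Cre controls and 11.93, 12.18 and 12.32 in the flox controls. The cKO lay just below both Cre controls and overlapped the flox controls, and no difference of Birc3 was larger than 0.20 in size on the log2 scale.

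**Figure D2:**
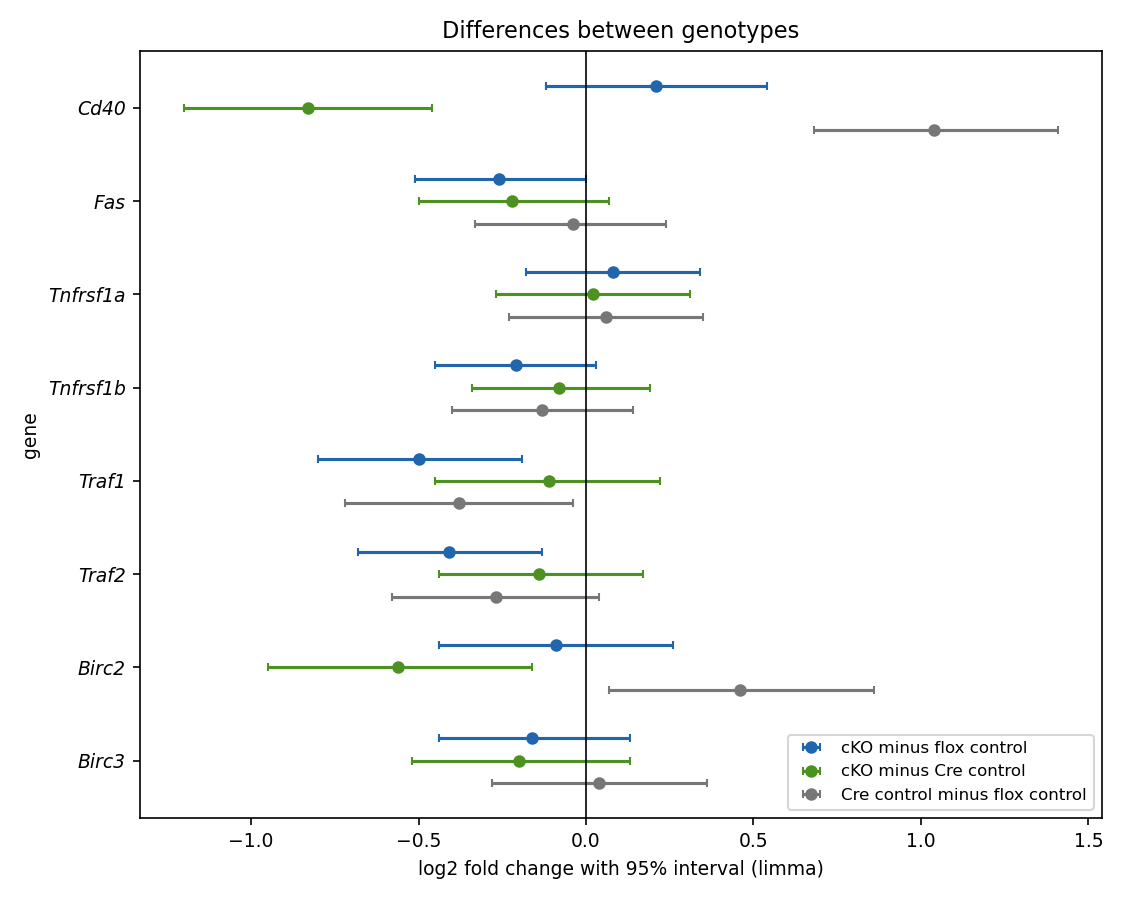
Log2 fold changes (horizontal axis) with 95% intervals from limma for each gene, for the cKO minus each control and for the Cre control minus the flox control. Cd40 and Birc2 lie below 0 against the Cre control and near or above it against the flox control, whereas Traf1 and Traf2 lie lowest against the flox control.

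Against the mean of both controls none of the 8 members passed, where 0.00714% of all 14002 tested probe sets did. An unadjusted p under 0.05 was found by limma for 5 members, namely Cd40, Fas, Traf1, Traf2 and Birc2, where 9.52% of probe sets had one. All 5 read lower in the cKO, at 79.9% to 84.9% of the mean control signal, but not all against each control alone. Against the flox control Cd40 read higher (log2 fold change 0.21) and Birc2 differed by -0.09, and against the Cre control Traf1 differed by -0.11. The number of members with an unadjusted p under 0.05 against both controls was 4 or fewer on leaving out any array. It was 0 without cKO replicate 1, flox control replicate 2 or Cre control replicate 1, to 1 without cKO replicate 2, to 2 without flox control replicate 1 or 3 or Cre control replicate 2, and to 0 without cKO replicate 1 and flox control replicate 1 together. In 2 members, Fas and Traf2, the cKO lay below all 5 controls, where 2.25% of probe sets did so, and this count was 4 without Cre control replicate 2. The log2 fold change was below 0 for 7 of 8 members, with a median of -0.25, against 46.6% of all tested probe sets and a median of 0.01.

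Against the flox control none of the 8 members passed, where 0.0429% of probe sets did. The unadjusted p by limma was under 0.05 for 3 members (Traf1, Traf2 and Fas, all lower), where 8.26% of probe sets had one. The count was 1 without cKO replicate 1 and flox control replicate 1 together. The cKO read below every flox control in 4 members, the genes whose promoters are printed above, where 6.31% of probe sets did so. The median over the 8 members was -0.18, with 6 lower and 2 higher, against a median of 0.01 over all probe sets.

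Against the Cre control none of the 8 members passed either, where 0.0714% of probe sets did. Cd40 and Birc2, 2 members, had by limma an unadjusted p below 0.05, where 13.5% of probe sets had one, and without Cre control replicate 1 the count was 1. The cKO lay below both Cre controls in 5 members (Cd40, Fas, Traf2, Birc2 and Birc3), where 16% of probe sets did so. The median over the members was -0.17. The comparisons of the cKO with each control share the cKO arrays.

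Between the control genotypes 1 of the 8 members passed, Cd40, where 0.486% of probe sets did. For 3 members the unadjusted p by limma was under 0.05 (Cd40 and Birc2 higher and Traf1 lower in the Cre control), where 14.7% had one, and this count was 1 without flox control replicate 2 or without Cre control replicate 2. The Cre controls lay above all flox controls for Cd40 and Birc2 (15.3% of probe sets) and below them for Traf1 and Traf2 (17.4% of probe sets). Without Cre control replicate 1 the number below was 4. Equal numbers of members read higher and lower, 4 of each.

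**Figure D3:**
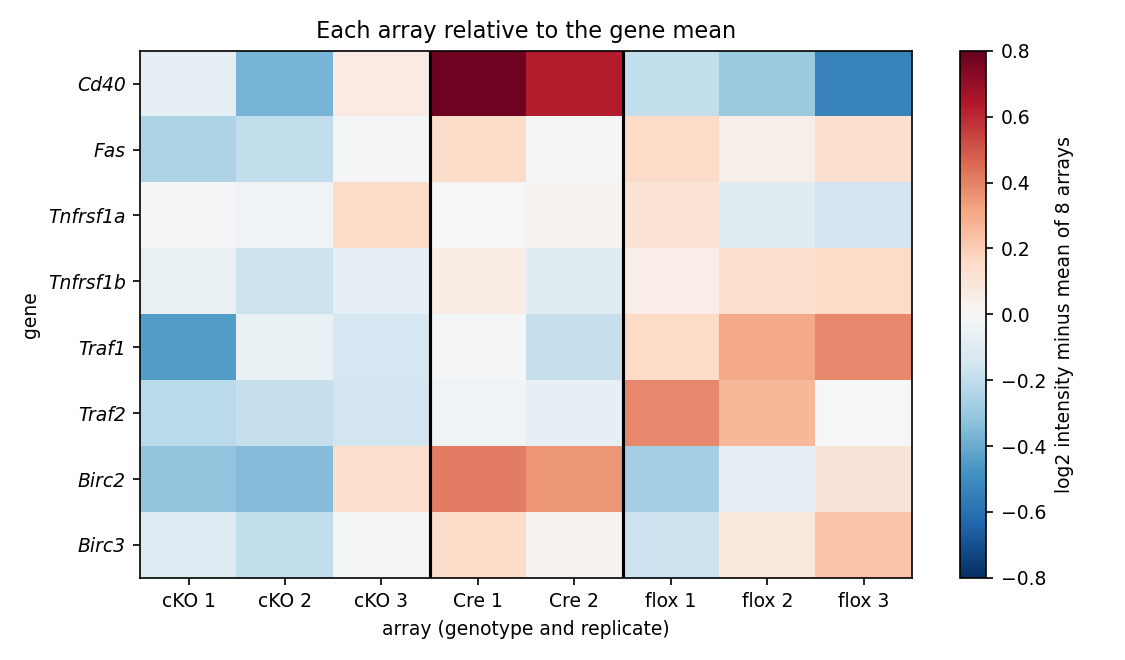
Log2 intensity of each gene in each array minus that gene's mean over 8 arrays, from blue (below) to red (above), with arrays in columns by genotype and replicate and vertical lines between genotypes. Cd40 and Birc2 are red in both Cre controls, Traf1 is bluest in cKO replicate 1 (-0.44) and reddest in flox control replicate 3 (0.39), and cKO replicate 3 is paler than the other cKO arrays.

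The cKO arrays were not alike. Averaged over the 8 genes after centring each gene, cKO replicates 1 and 2 lay at -0.18 and -0.19 and cKO replicate 3 at 0.00, while the Cre controls lay at 0.19 and 0.09 and the flox controls at 0.03, 0.05 and 0.04. In cKO replicate 3 Cd40, Tnfrsf1a and Birc2 were above their gene means. Across the 8 arrays Traf1, Traf2, Fas and Tnfrsf1b had Pearson correlations of 0.65 to 0.77 with each other. Birc2 correlated with Cd40 (0.73) and with Birc3 (0.74), and Cd40 had negative coefficients with Traf1 (-0.45), Traf2 (-0.21) and Tnfrsf1b (-0.22). These coefficients describe 8 arrays that share 3 genotypes and a normalization, and the group differences above enter them.

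Outside the members, 11996 tested genes were ranked by their Pearson correlation over the 8 arrays with the mean of the centred members. The 5 with the highest values were Gp6 (0.984), Lsm14a (0.981), Tyk2 (0.976), Tnip3 (0.970) and Dram1 (0.968). Tyk2 encodes a Janus kinase of cytokine receptors and Tnip3 an inhibitor of NF-kB signalling. Tnip3 read 10.27, 9.79 and 10.80 in the cKO, 11.64 and 11.36 in the Cre controls and 11.14, 11.07 and 10.92 in the flox controls. These 5 were picked as the highest of 11996 coefficients over 8 arrays, and the group differences above enter them too. How much of their size comes from this selection was not tested.

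The ligands of these receptors were read on the same arrays. Tnf, the ligand of both TNF receptors, read 12.57, 12.20 and 12.93 in the cKO, 13.17 and 12.81 in the Cre controls and 13.17, 12.83 and 12.71 in the flox controls, a log2 fold change of -0.38 (SE 0.18, adjusted p = 0.551 by limma) against both controls with overlapping groups. Ltb, a subunit of the lymphotoxin that signals through another receptor of the family, read 10.47, 10.25 and 10.84 in the cKO, 10.22 and 10.41 in the Cre controls and 11.30, 11.37 and 10.84 in the flox controls. Its order of groups had the flox control highest, as for Traf1 and Traf2, and its difference from the flox control was -0.65 (SE 0.19, adjusted p = 0.394). Lta (-0.21, SE 0.17) and Fasl, the ligand of Fas (-0.14, SE 0.16), had adjusted p of 0.766 and 0.845 against both controls by limma. Cd40lg, the ligand of CD40, lay below the median of all values in every array and was not tested. Of the 4 tested genes, Ltb included, none passed against both controls, where 0.00714% of all probe sets did. All 4 read lower (median -0.21), where 46.6% of all probe sets did (median 0.01). Against each control alone 3 read lower and 1 higher, Fasl against the flox control (0.09) and Ltb against the Cre control (0.20).

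Other genes of the pathway also gave no call against both controls, with 0.00714% of all probe sets called. Of 21 tested genes of other TNF family receptors 11 read higher and 10 lower (median 0.01), where 46.6% of all probe sets read lower. For 5 the unadjusted p by limma was under 0.05, where 9.52% of all probe sets had such a p. They included Tnfrsf23 (0.57, SE 0.15) and Tnfrsf26 (0.73, SE 0.22), both higher in the cKO, and Tnfrsf10b, a mouse TRAIL receptor (0.40, SE 0.12). Tnfrsf13b, a receptor for the B cell factors BAFF and APRIL, read lower (-0.32, SE 0.11). Of 6 other TRAF and IAP genes 3 read higher and 3 lower, among them Traf5 (0.32, SE 0.15), Traf6, which serves Toll-like receptors as well as CD40 (-0.32, SE 0.18), Birc6 (0.30, SE 0.18) and the caspase inhibitor Xiap (-0.25, SE 0.20). None of the 6 had an unadjusted p under 0.05.

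Of 24 tested genes for receptor complex partners, kinases and ubiquitin enzymes 16 read lower and 8 higher (median -0.05), where 46.6% of all probe sets read lower. For 6 the unadjusted p by limma was under 0.05, where 9.52% of all probe sets had one. Tnfaip3, a ubiquitin-editing brake on TNF receptor signalling, read 12.78, 12.80 and 13.02 in the cKO, 13.38 and 13.20 in the Cre controls and 13.29, 13.30 and 13.33 in the flox controls (log2 fold change -0.43, SE 0.10, adjusted p = 0.319). No cKO array of Tnfaip3 reached a control, where in 2.25% of all probe sets the cKO lay below all controls. The genes of this list were named for their small p in this same comparison, so this separation cannot be weighed against that share. Tank, a TRAF-binding adaptor of the kinase TBK1, read 9.36, 9.48 and 9.70 in the cKO, 10.43 and 10.06 in the Cre controls and 9.72, 9.73 and 10.01 in the flox controls (-0.52, SE 0.14, adjusted p = 0.341). Tnip1, a partner of the Tnfaip3 protein (-0.59, SE 0.16), also read lower, whereas Ikbkg, the regulatory subunit of the IkB kinase, read higher (0.52, SE 0.17).

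**Figure D4:**
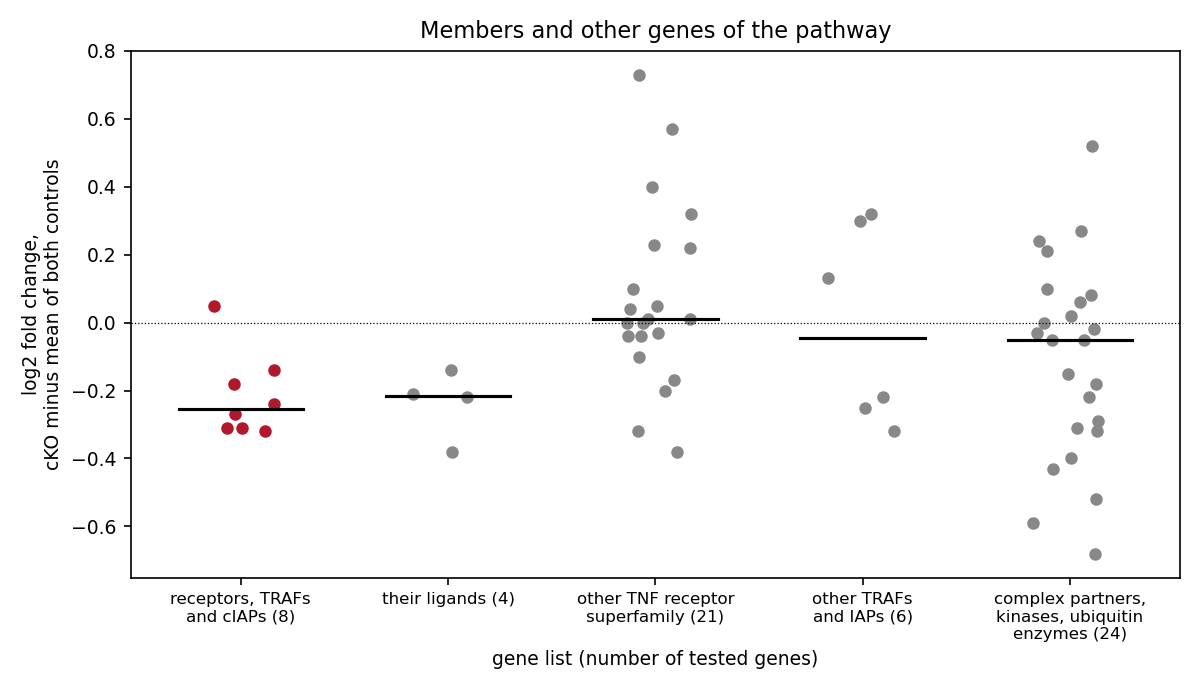
Log2 fold change of the cKO minus the mean of both controls (vertical axis) for every tested gene of 5 lists, with a point for each gene and a bar for the list median. The 8 receptors, TRAFs and cIAPs lie between -0.32 and 0.05, and the other receptors of the family spread from -0.38 to 0.73 around a median of 0.01.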

How the data were processed

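The deposited values are log2 probe set intensities from 8 arrays, made by the authors in Affymetrix Expression Console with Robust Multiarray Analysis (RMA), which subtracts background and normalizes, per the labels and the series' design text. The sources used here name no software version or genome build. No further scaling was applied.

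Gene symbols came from the platform annotation, and 23328 of 23521 probe sets with 1 symbol matched RefSeq by gene identifier. The 14002 of these above the median of all values (5.45) in at least 2 arrays were tested, and all 8 members passed this filter in every array. A single limma 3.58.1 fit (R 4.3.3) of 3 groups, with 5 residual and 4.69 prior degrees of freedom, gave fold changes, standard errors and two-sided p-values, with Benjamini-Hochberg adjustment across the 14002 probe sets and a threshold of 0.05. The fit was checked on simulated data. Replicates are separate pools, numbered in sample order. The number of arrays limits precision.

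The members and lists were chosen with earlier results of these data known. Named were Arf6, all members, up to 4 genes of each list by smallest p, and the 5 genes most like the member mean. Between the control genotypes Tnfrsf23 was named as well, for its opposite direction. Gene lists beyond those described covered T and NK cells, eosinophils, fibroblasts and endothelium as markers, with values in the closing section. Alternatives were other filters, scalings, variance models, array weights, fits of the compared groups alone and omission of arrays.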

Additional observations from a re-analysis of the deposited data

How the results depend on the processing

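Of 536 values of the 8 genes in 4 comparisons under other settings, 529 stayed on the same side of the threshold, and no called value changed sign. Most of these results were uncalled from the start, so few could change side. The only call in the main fit, Cd40 between the control genotypes, was lost in 6 of 17 settings. The count of members past the threshold stayed at 0 against both controls (16 settings) and against the flox control (17 settings). Against the Cre control it was 1 with array weights, where Cd40 read -0.80 (adjusted p = 0.034), and between 0 and 0 on leaving out 1 array. Between the control genotypes it ranged from 0 to 1 on leaving out 1 array and was 0 without cKO replicate 1 and flox control replicate 1 together (Cd40 at 1.12, adjusted p = 0.118). The median over members stayed between -0.29 and -0.19 against both controls, -0.24 and -0.13 against the flox control, and -0.23 and -0.13 against the Cre control. The number of members with an unadjusted p under 0.05 against both controls was 1 with median centring and 2 with a variance trend. For Arf6 against both controls, leaving out both sex-divergent pools gave -1.75 (adjusted p = 0.0791). The fit of the compared groups alone equals that reported for both controls. No paired analysis was possible because the labels number samples in a single run and give the genotypes no shared replicate numbers.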

Other observations

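No listed marker of other cells passed the threshold in any comparison. T and NK cell markers (8 of 9 measured) had mean levels of 5.96 to 6.06 in the cKO, 6.04 to 6.31 in the Cre controls and 5.65 to 5.81 in the flox controls, which lay below the other 5 arrays. Eosinophil markers (5 of 5) overlapped between groups, with means of 6.59 to 7.18 in the cKO, 6.66 to 7.31 in the Cre controls and 6.33 to 6.70 in the flox controls. Fibroblast and endothelial markers (6 of 6) overlapped in all groups, with 6.63 to 7.31 in the cKO, 6.79 to 7.26 in the Cre controls and 6.77 to 7.13 in the flox controls. Single genes of this list differed in level, with Col1a1 between 7.32 and 9.09 over the arrays and Cdh5 between 5.09 and 5.75. Which cells gave the Col1a1 signal was not tested.

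Of the 21 tested genes of other TNF family receptors, 9 read higher and 12 lower in the Cre control than in the flox control (median -0.01), and none passed. The unadjusted p by limma was under 0.05 for 4 that read higher and 1 that read lower, where 14.7% of all probe sets had such a p. Tnfrsf14, known as HVEM, read 8.61 and 8.39 in the Cre controls and 8.11, 7.95 and 7.88 in the flox controls (log2 fold change 0.52, SE 0.16, adjusted p = 0.166 by limma). Tnfrsf9, known as 4-1BB, read 9.15 and 9.10 in the Cre controls and 8.67, 8.77 and 8.29 in the flox controls (0.54, SE 0.19, adjusted p = 0.232). Tnfrsf4, known as OX40, read 7.29 and 7.26 in the Cre controls and 6.59, 6.90 and 6.96 in the flox controls (0.46, SE 0.14, adjusted p = 0.181). Tnfrsf11a read 7.01 and 7.05 in the Cre controls and 6.47, 6.90 and 6.37 in the flox controls (0.45, SE 0.17, adjusted p = 0.242 by limma). In each of Tnfrsf14, Tnfrsf9, Tnfrsf4 and Tnfrsf11a both Cre controls lay above all 3 flox controls, where 15.3% of all probe sets did so. These genes were named for their small p in this same comparison, so their separation cannot be weighed against that share. In the other direction, Tnfrsf23 read 9.86 and 10.41 in the Cre controls and 10.79, 10.48 and 10.63 in the flox controls (-0.50, SE 0.19, adjusted p = 0.251 by limma).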
